A study of Homo sapiens with 8 samples.

Results

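The supply of deoxynucleotides was examined through 9 genes, RRM1, RRM2, RRM2B, TYMS, DUT, DTYMK, TK1, DCK and DCTPP1, chosen by name as the enzymes that make, salvage or clean up the building blocks of DNA, and matched by Ensembl identifier to the rows of both deposited tables. Each of the 9 had a row in both, 9 of 25431 listed genes in 769-P and 9 of 24190 in CAKI-1, and each passed the filter on low values. The 9 were chosen with earlier results of these data known, so their counts below are no independent test. RNA was sequenced from 769-P and CAKI-1, established lines of clear cell renal cell carcinoma (ccRCC) from ATCC, after 16 hours with or without branched-chain amino acids (BCAA). The groups with BCAA received valine at 0.17 mM and both leucine and isoleucine at 0.38 mM, the groups without received none of these, and the labels name no genotype or other agent. The study's depleted medium was made from amino acid-free RPMI powder with dialyzed serum, although the lines were otherwise kept in different media, RPMI for 769-P and MEM for CAKI-1. Each group held 2 libraries, 8 in all. The study's legend for its RNA-seq gives a larger n per condition than the labels, and its methods speak of independent experiments for cell culture work in general. Neither says whether the libraries of a group came from separate cultures, so p-values measure the spread between these libraries, which may be technical. The comparison asks how the presence of BCAA alters the transcriptome of renal cancer cells, here for the genes of deoxynucleotide supply.

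Ribonucleotide reductase turns ribonucleotides into deoxynucleotides. Its large subunit RRM1 pairs with one of the small subunits, either RRM2, which is made in S phase and destroyed in mitosis, or RRM2B, also called p53R2, which serves DNA repair and mitochondrial DNA in cells that do not divide. Thymidine nucleotides are made by TYMS from dUMP, which DUT provides by cleaving dUTP, and DTYMK then phosphorylates dTMP. TK1 and DCK salvage nucleosides from outside the cell or from DNA breakdown, and DCTPP1 hydrolyses dCTP and modified cytosine nucleotides. RRM1, RRM2, TYMS, TK1 and DUT are textbook targets of the E2F transcription factors that drive entry into S phase.

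Between 30979773 and 64256834 reads lay on the listed genes of a library. In 769-P the libraries with BCAA were deeper, at 64256834 and 55829324 reads, than those without, at 39062721 and 40130258. The values are normalised read counts, which are reads divided by a size factor for each library (0.777 to 1.32), so they are comparable between libraries for 1 gene but not between genes of different length. Replicate libraries differed by more than counting noise (chi-square divided by its degrees of freedom 3.36 to 12.9), and each was counted as a sample. Of 8 renal and ccRCC markers, 7 were listed in 769-P and 6 in CAKI-1, among them PAX8 at 14547 to 23271 and 8700 to 10739. CA9, a ccRCC marker, had no row in either table, and PAX2 had none in CAKI-1. PAX8 was called lower with BCAA in 769-P, at -0.64 on the log2 scale, and was not called in CAKI-1, at -0.17. The summed level of 7 markers of leukocytes, endothelium, hepatocytes and red cells, of which 3 were listed in 769-P and 2 in CAKI-1, was 3.67 to 11.4 in 769-P and 1.90 to 5.15 in CAKI-1. Among 4 reference genes, TBP and GAPDH were not called in either line, RPLP0 was lower and ACTB was higher with BCAA in both.

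Promoter sequence is shown to set letters known from cell cycle promoters beside genes that rose together. RefSeq windows on GRCh38.p14, from 250 bases before to 50 after an annotated start, were given for 8 of the 9 genes, 13 windows in all. RRM2B had none. Both strands were searched for E2F letters (TTTCCCGC, TTTGGCGC, TTTCGCGC or TTTGCCGC), the CCAAT box bound by NF-Y (CCAAT), and the CHR element of late cell cycle genes (TTTGAA). E2F letters stood in 3 of the 8 genes (TYMS, DUT and DCK), against 3.99% of all 27305 genes with a window. RRM1, RRM2 and TK1, named above as E2F targets, held none of these E2F letters. CCAAT stood in 4 (RRM1, RRM2, TK1 and DTYMK), against 39.7% of genes, and TTTGAA in 2 (RRM1 and DUT), against 18.2%. DCTPP1 held none of these letters. A match is a description of letters and not a binding site. The 30-base windows below are on the strand of the gene, with the letters or their reverse complement in capitals. Positions count from 1 at the start, with -1 the base before it. The windows are a selection. It leaves out CCAAT of DTYMK at -92 and -24, CCAAT of RRM2 at -249 from another start, and all TTTGAA sites.
TYMS, E2F letters at -39, chr18:657603-657632, plus strand: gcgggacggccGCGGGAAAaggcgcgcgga
DUT, E2F letters at -42, chr15:48332144-48332173, plus strand: gggcggggctgGCGGGAAAtttcggttttg
DUT, E2F letters at -27, chr15:48332159-48332188, plus strand: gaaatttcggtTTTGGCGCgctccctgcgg
DCK, E2F letters at 22, chr4:70993659-70993688, plus strand: gctgcctccgcGCGCCAAAgtcaaaccccg
RRM2, CCAAT at -123, chr2:10122604-10122633, plus strand: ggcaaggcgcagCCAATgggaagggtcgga
RRM2, CCAAT at -93, chr2:10122634-10122663, plus strand: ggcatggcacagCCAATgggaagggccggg
RRM2, CCAAT at -66, chr2:10122661-10122690, plus strand: ggggcaccaaagCCAATgggaagggccggg
TK1, CCAAT at -77, chr17:78187112-78187141, minus strand: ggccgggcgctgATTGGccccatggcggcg
TK1, CCAAT at -46, chr17:78187081-78187110, minus strand: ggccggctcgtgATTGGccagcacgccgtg
RRM1, CCAAT at -28, chr11:4094645-4094674, plus strand: gcatgtccatatCCAATggggcccatggga

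With BCAA, 8 of the 9 genes rose in 769-P and the same 8 rose in CAKI-1, led by RRM2 and TK1, and RRM2B was the exception in both lines. In limma fits over all tested genes (adjusted p under 0.05, no minimum fold), 20.3% of 22391 genes rose in 769-P and 10.8% of 21347 in CAKI-1, and 18.2% and 9.05% fell. No member was called lower in either line, while at an unadjusted p under 0.05 none was lower in 769-P and RRM2B alone was in CAKI-1. The counts of 8 higher and none lower were the same with edgeR and DESeq2 on the recovered reads. Likewise 8 of the 9 were called in each line after the reads were thinned to 30979773 in every library. Over all genes and both directions, edgeR called 8794 of 22391 in 769-P and 4397 of 21347 in CAKI-1. DESeq2 called 7537 of 17615 and 3790 of 13069, and the fit of thinned reads called 7801 of 20921 and 3363 of 20511. The median log2 fold change of the 9 was 0.96 in 769-P and 0.79 in CAKI-1, beside -0.02 and -0.01 over all genes tested. In none of the 9 did the libraries with BCAA overlap those without, in either line, and this includes RRM2B, which was not called. With 2 libraries against 2, genes that do not change can separate too. The share of all genes that separated was not counted, so no conclusion is drawn from it. Together the 9 summed to 1181 and 1203 RPM (reads scaled to the reads on listed genes) in 769-P with BCAA and 572.7 and 573.5 without. The sums in CAKI-1 were 865.2 and 807.4 with BCAA and 462.5 and 438.7 without.

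**Figure D1:**
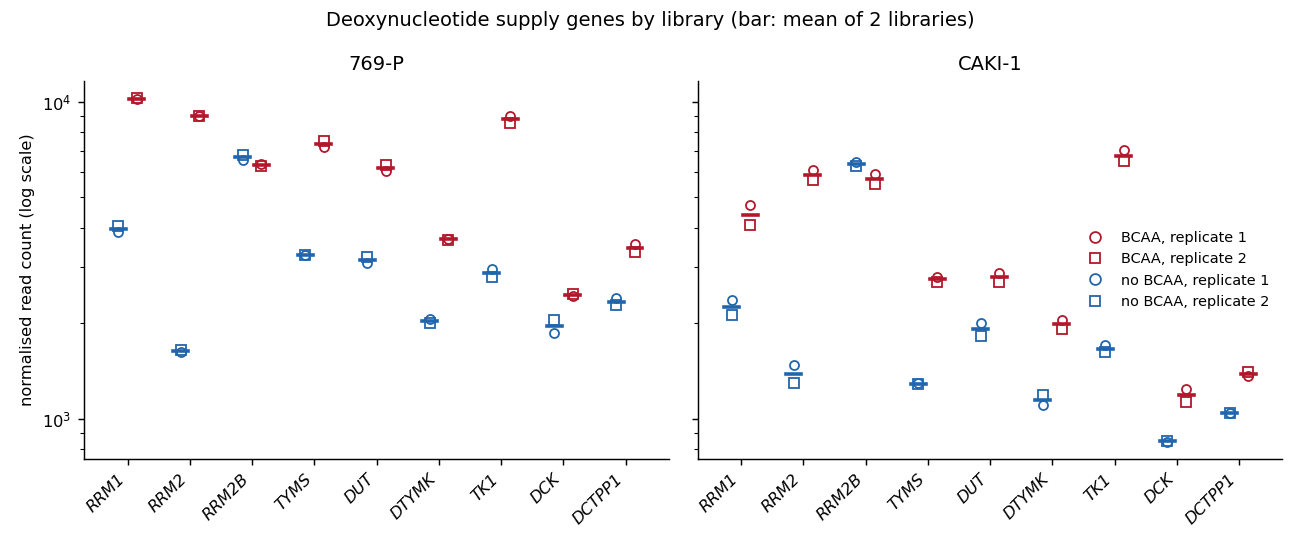
Normalised read count on a log axis for each of the 9 genes in 769-P (left) and CAKI-1 (right), with circles and squares for replicates 1 and 2 and a bar at the mean of the 2 libraries. Red points (BCAA) lie above blue points (no BCAA) for 8 genes, and for RRM2B they lie slightly below, at 6277 and 6369 against 6568 and 6803 in 769-P.

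RRM2 (chr2:10120698-10131419 on GRCh38, plus strand), the S-phase small subunit, had the largest log2 fold change of the 9 in both lines, with TK1 close to it in CAKI-1. In 769-P its normalised read count was 8979 and 9015 with BCAA and 1628 and 1642 without. In CAKI-1 it was 6089 and 5675 with BCAA and 1475 and 1301 without. Libraries with BCAA lay far above those without in both lines. The log2 fold change was 2.46 in 769-P (SE 0.05, limma adjusted p = 2.12e-11), a rise of 5.50-fold that ranked 121 among the 22391 genes tested. In CAKI-1 it was 2.08 (SE 0.07, limma adjusted p = 7.68e-08), 4.24-fold and rank 113 of 21347. By exon length, RRM2 stood at the 74.6th percentile of detected genes in 769-P without BCAA and at the 93.8th with it, and in CAKI-1 at the 74.8th and the 92.4th. In the annotation 20.2% of its exon bases also belong to AC007240.1, a gene on the same strand without a row in either table. Among its 3 annotated pseudogenes, 2 were listed in each line, at no more than 28.2 in 769-P and 25.3 in CAKI-1, so few reads were assigned to these copies.

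RRM1 (chr11:4094707-4138876, plus strand), the large subunit with the catalytic site, rose less than RRM2. Its levels in 769-P were 10193 and 10253 with BCAA against 3887 and 4044 without, a log2 fold change of 1.37 (SE 0.05, limma adjusted p = 7.26e-10). The CAKI-1 levels were 4712 and 4076 against 2375 and 2118, a log2 fold change of 0.97 (SE 0.08, limma adjusted p = 1.72e-05). The 2 CAKI-1 libraries with BCAA were 0.21 apart on the log2 scale, the widest gap between replicates among the 9 genes, and still both lay above the libraries without.

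RRM2B (chromosome 8, minus strand), the alternative small subunit also called p53R2, did not rise. Its 769-P libraries held 6369 and 6277 with BCAA and 6568 and 6803 without. The CAKI-1 libraries held 5912 and 5517 with BCAA and 6440 and 6255 without. All 4 libraries with BCAA were below their line's libraries without it, by amounts that did not pass the test. The log2 fold change was -0.08 in 769-P (95% interval -0.18 to 0.02, limma adjusted p = 0.197) and -0.15 in CAKI-1 (-0.28 to -0.02, limma adjusted p = 0.1002). These intervals leave room for a fall of up to 0.28 and for no rise beyond 0.02 on the log2 scale. A call of lower appeared in 769-P under quantile normalization, at -0.13 (limma adjusted p = 0.0340), and in CAKI-1 when the spread was taken from all 8 libraries (limma adjusted p = 0.0429). Over the fits that kept every library the adjusted p ran from 0.0340 to 0.630 in 769-P and from 0.0429 to 0.294 in CAKI-1.

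**Figure D2:**
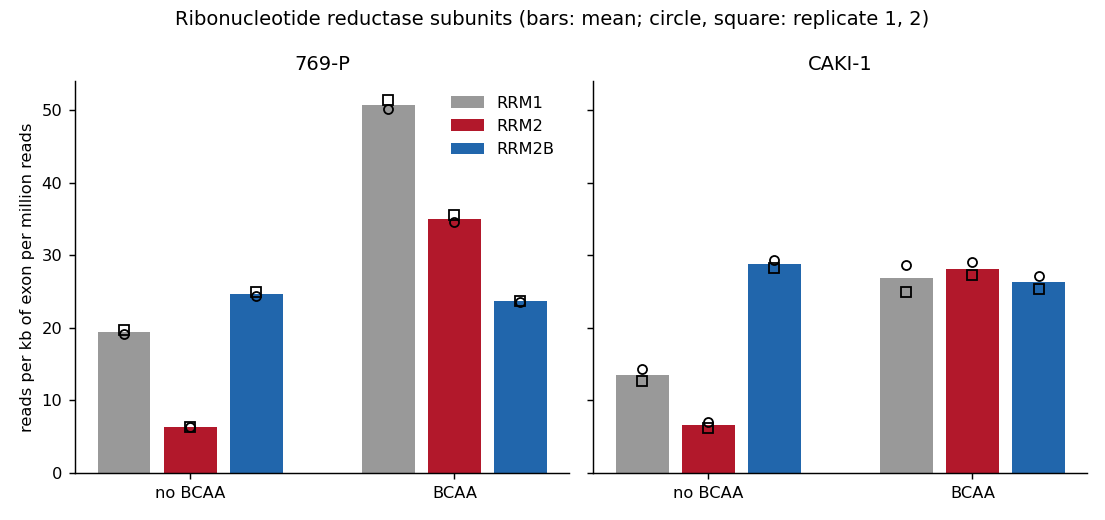
RPKM (reads scaled to exon length in kb and to library size) for RRM1, RRM2 and RRM2B without and with BCAA in 769-P (left) and CAKI-1 (right), with bars at the mean of 2 libraries and circles and squares for replicates 1 and 2. RRM2 is the lowest bar without BCAA, at 6.30 and 6.57, and is above RRM2B with BCAA in both lines.

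The level of RRM2 relative to RRM2B was compared within each library after division by exon length, so that no scaling between libraries enters. In 769-P the ratio of RRM2 to RRM2B was 1.469 and 1.497 with BCAA and 0.258 and 0.252 without. The CAKI-1 ratio was 1.07 in both libraries with BCAA and 0.239 and 0.217 without. RRM2 thus made up 59.5% and 59.9% of the small subunit transcripts of 769-P with BCAA and 20.5% and 20.1% without, and in CAKI-1 51.8% and 51.7% with and 19.3% and 17.8% without. The log2 ratio differed by 2.54 in 769-P and by 2.24 in CAKI-1, where the pooled SD between replicates was 0.02 and 0.07 (n = 2 per group). The exact two-sided permutation test gave p = 0.333 in each line, the smallest that 2 libraries against 2 allow. When the longest transcript set the length instead of all exons, the ratio was 1.89 and 1.93 against 0.333 and 0.324 in 769-P, and 1.38 in both against 0.307 and 0.279 in CAKI-1, so RRM2 exceeded RRM2B with BCAA by either length.

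The ratio of RRM2 to its partner RRM1 rose as well. Per exon length it was 0.691 ± 0.0009 with BCAA and 0.324 ± 0.007 without in 769-P (mean ± SD, n = 2). The CAKI-1 ratio was 1.05 ± 0.06 with and 0.485 ± 0.004 without. These are differences of 1.09 and 1.12 on the log2 scale. RRM1 relative to RRM2B was 2.15 against 0.788 in 769-P and 1.02 against 0.470 in CAKI-1.

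The 3 genes of thymidylate synthesis rose in both lines. TYMS (chr18:657604-673578, plus strand), the enzyme that methylates dUMP to dTMP and the target of fluorouracil, was at 7203 and 7511 with BCAA and at 3285 and 3280 without in 769-P. Its CAKI-1 levels were 2802 and 2696 with and 1293 and 1286 without. These groups were far apart next to gaps of 0.06 or less on the log2 scale between replicates. Log2 fold changes were 1.16 (SE 0.05, limma adjusted p = 3.69e-09) and 1.09 (SE 0.07, limma adjusted p = 1.83e-06). Its exons overlap those of ENOSF1 on the opposite strand over 967 bases, 39.1% of its exon bases, and those of TYMSOS over 183 bases. Whether the counting used strand is not given in the sources used here, so reads in these stretches cannot be assigned to a strand with certainty. ENOSF1 changed by 0.37 in 769-P and by -0.14 in CAKI-1, the latter not called, both smaller than the change of TYMS. TYMSOS, a long non-coding RNA gene at far lower levels (means of 75.8 with BCAA and 40.6 without in 769-P, and 26.2 and 13.1 in CAKI-1), rose by 0.90 in 769-P (SE 0.30, limma adjusted p = 0.0343) and was at 0.94 in CAKI-1 (SE 0.51, limma adjusted p = 0.247), not called.

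DUT (chr15:48331011-48343373, plus strand), which keeps uracil out of DNA by removing dUTP, was at 6058 and 6325 with BCAA against 3108 and 3246 without in 769-P. In CAKI-1 the levels were 2883 and 2708 against 2006 and 1818. The log2 fold changes were 0.96 (SE 0.05, limma adjusted p = 2.73e-08) and 0.55 (SE 0.07, limma adjusted p = 0.000364). The nuclear and mitochondrial forms of DUT share this row. AC023355.1, on the opposite strand across 14.5% of the exon bases of DUT, had mean levels of 2.41 to 12.3, and the listed DUT pseudogenes reached at most 8.55.

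DTYMK (chr2:241675742-241686991, minus strand), the kinase that turns dTMP into dTDP on the way to dTTP, was at 3699 and 3652 with BCAA and 2062 and 2001 without in 769-P. The CAKI-1 levels were 2048 and 1925 with and 1107 and 1190 without. Its log2 fold changes were 0.86 (SE 0.05, limma adjusted p = 1.19e-07) and 0.79 (SE 0.08, limma adjusted p = 3.80e-05). No annotated exon of another gene overlaps it.

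Of the 2 salvage kinases, TK1 rose strongly and DCK slightly. TK1 (chr17:78174075-78187233, minus strand), the cytosolic thymidine kinase and a serum marker of proliferation, was at 9041 and 8572 with BCAA against 2976 and 2799 without in 769-P. It was at 7015 and 6482 against 1702 and 1627 in CAKI-1. The log2 fold changes were 1.61 (SE 0.05, 3.05-fold, limma adjusted p = 5.96e-10) and 2.02 (SE 0.07, 4.05-fold, limma adjusted p = 4.66e-08). TK1 ranked 141 among all CAKI-1 genes by rise and 758 in 769-P.

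DCK (chr4:70992538-71030914, plus strand), which phosphorylates deoxycytidine and activates cytarabine and gemcitabine, was at 2441 and 2482 with BCAA and at 1867 and 2053 without in 769-P. Its CAKI-1 levels were 1240 and 1130 with and 846.8 and 849.3 without. The groups did not overlap, but the log2 fold change of 0.33 in 769-P (SE 0.06, limma adjusted p = 0.00114) was 2.41 times the gap between the replicates without BCAA. In CAKI-1 the log2 fold change was 0.48 (SE 0.08, limma adjusted p = 0.00186). Fits on 3 libraries lost the 769-P call of DCK without replicate 1 with BCAA, replicate 2 with BCAA or replicate 1 without BCAA, at limma adjusted p = 0.132, 0.143 and 0.0689. DCK shares 199 exon bases, 6.17%, with MOB1B on the same strand, which was at -0.05 in 769-P, not called, and at 0.28 in CAKI-1.

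DCTPP1 (chr16:30423619-30430075, minus strand), the pyrophosphatase that trims the dCTP pool, was at 3561 and 3357 with BCAA and 2406 and 2277 without in 769-P. In CAKI-1 it was at 1367 and 1405 with and 1042 and 1046 without. Its log2 fold changes were 0.56 (SE 0.06, limma adjusted p = 7.82e-06) and 0.41 (SE 0.07, limma adjusted p = 0.00256). ZNF771, on the opposite strand across 42.1% of its exon bases, was not called, at -0.12 and -0.23. Without replicate 1 with BCAA, the 3 remaining 769-P libraries gave DCTPP1 a limma adjusted p of 0.0507.

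**Figure D3:**
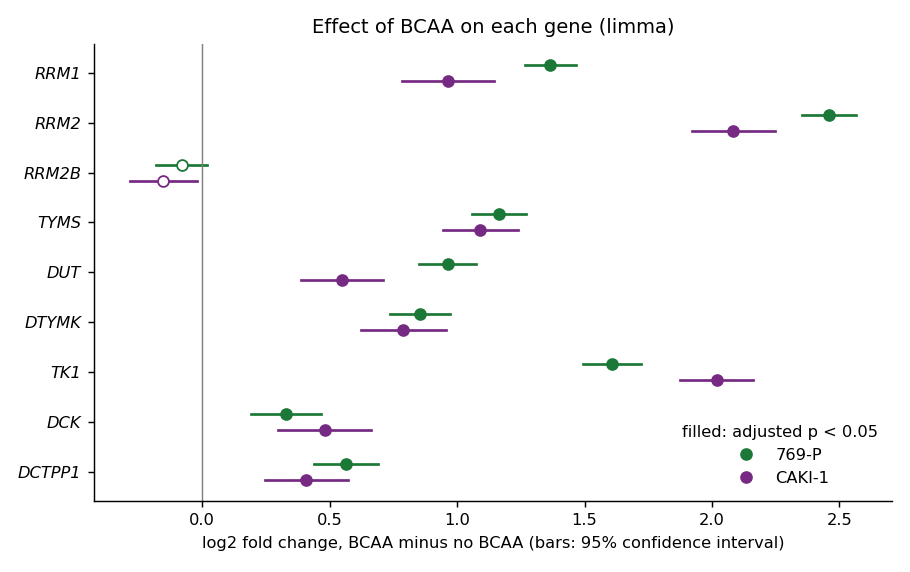
Log2 fold change (BCAA minus no BCAA) with its 95% confidence interval for each gene in 769-P (green) and CAKI-1 (purple), with filled points for an adjusted p under 0.05 in limma. RRM2 is farthest to the right in both lines, at 2.46 and 2.08, and the open points of RRM2B are at -0.08 and -0.15.

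Leaving out any 1 library of CAKI-1 and fitting the other 3 called no gene at all, none of 21100 to 21339, with 1 residual degree of freedom. At an unadjusted p under 0.05, 8 or 9 of the 9 genes passed in those limma fits, and 4235 to 5687 genes overall. Fits with the spread taken from the 7 libraries left of both lines assume that a lone library varies like the others. In them the 8 genes had CAKI-1 log2 fold changes from 0.39 (DCTPP1) to 2.17 (RRM2). RRM2B was at -0.20 in CAKI-1 without replicate 1 with BCAA.

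The order of the genes by level, in RPKM, also differed between the groups. The places of TYMS, DCTPP1, DUT and RRM2 are uncertain, since the exon overlaps given above could add or remove reads. The order also rests on the length used, here all exon bases of a gene. DTYMK has 2451 exon bases and a longest transcript of 1232, and RRM2 has 5323 and 3673. The order was not repeated with the longest transcript, and the place of RRM2 next to DTYMK depends on this choice. In 769-P without BCAA, TK1 at 31.8 and DCTPP1 at 30.4 overlapped at the top, followed by TYMS at 27.2, RRM2B at 24.7, RRM1 at 19.5, DUT at 17.7, DTYMK at 17.0 and DCK at 12.4, with RRM2 last at 6.30. With BCAA, TK1 at 98.1 led TYMS at 61.8, RRM1 at 50.8 and DCTPP1 at 45.4. RRM2 at 35.0 and DUT at 35.0 overlapped, above DTYMK at 31.1, RRM2B at 23.6 and DCK at 15.8. By all exon bases, RRM2 thus moved from below all of the others to above DTYMK, RRM2B and DCK.

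CAKI-1 without BCAA had RRM2B first at 28.8, then TK1 at 22.5 and DCTPP1 at 16.6. RRM1 at 13.6, TYMS at 13.2 and DUT at 13.1 overlapped, DTYMK followed at 11.8, and DCK at 6.62 and RRM2 at 6.57 overlapped at the bottom. With BCAA, TK1 at 92.3 stood far above TYMS at 28.3, RRM2 at 28.1, RRM1 at 26.8 and RRM2B at 26.2, each of which overlapped its neighbour. Below them were DCTPP1 at 22.3, DTYMK at 20.6, DUT at 19.4 and DCK at 9.35. Levels were ordered within a line because the tables were normalised separately.

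**Figure D4:**
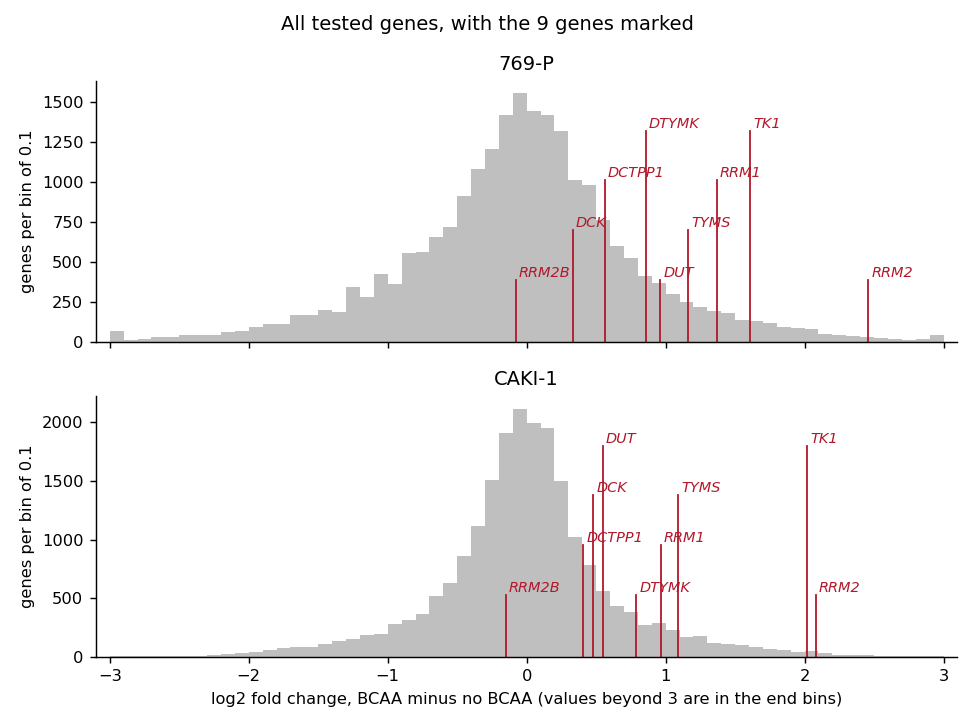
Number of tested genes by log2 fold change (BCAA minus no BCAA) in bins of 0.1 for 769-P (top) and CAKI-1 (bottom), with red lines at the 9 genes, whose heights carry no value. RRM2 and TK1 are in the right tail in both lines, and RRM2B, at -0.08 and -0.15, is in the central peak.

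The size of the BCAA effect was compared between the lines by the cell line by BCAA interaction in a limma model of all 8 libraries, where 21.1% of 19406 genes differed. Of the 9 genes, 4 differed. The rise was larger in 769-P for RRM1 by 0.40 (SE 0.10, limma adjusted p = 0.0117), for RRM2 by 0.37 (SE 0.09, limma adjusted p = 0.00973) and for DUT by 0.41 (SE 0.09, limma adjusted p = 0.00434) on the log2 scale. For TK1 the difference, 769-P minus CAKI-1, was -0.41 (SE 0.08, limma adjusted p = 0.00320), a larger rise in CAKI-1. The difference for RRM1 lost its call without replicate 1 of 769-P without BCAA (limma adjusted p = 0.0585) or replicate 1 of CAKI-1 without BCAA (limma adjusted p = 0.0599). No difference was called for TYMS (0.07, 95% interval -0.09 to 0.24), DTYMK (0.07, -0.13 to 0.26), RRM2B (0.07, -0.08 to 0.23), DCK (-0.15, -0.37 to 0.07) or DCTPP1 (0.15, -0.04 to 0.35), with limma adjusted p from 0.252 to 0.665. These intervals include differences about as large as some of those called.

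Genes of replication and division were higher as well. All 12 genes of an S-phase and proliferation list (PCNA, MCM2 to MCM7, CCNE2, CDC6, MKI67, TOP2A and CCNB1) rose in both lines. The median rise was 1.27 in 769-P (0.47 to 1.94) and 1.15 in CAKI-1 (0.82 to 2.02) on the log2 scale. Among all genes tested, 20.3% rose in 769-P and 10.8% in CAKI-1, and the share that rose in both was not counted. This list too was chosen with earlier results of these data known. In 769-P the summed normalised read counts of the 12 genes were 152693 to 159114 with BCAA and 69774 to 69839 without. In CAKI-1 the sums were 66217 to 74039 with and 29879 to 31447 without. In bulk RNA, fewer cells of a kind, such as cells in S phase, and less RNA per cell cannot be told apart. The part of cycling cells in the rise of the 8 genes was not tested.

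The genes whose pattern over the 8 libraries was nearest to that of each subunit were sought among 13152 genes, by the Euclidean distance between log2 values centred within each line. For RRM2 these were SPC24 (0.394), CCNA2 (0.468), ESCO2 (0.477), PEG10 (0.491) and E2F8 (0.496). SPC24 is a kinetochore protein, CCNA2 the cyclin of S phase and G2, ESCO2 an acetyltransferase of cohesin and E2F8 a repressor of the E2F family. For RRM1 they were SLC4A4 (0.125), TTK (0.137), NUSAP1 (0.153), PCNA (0.169) and CDH6 (0.175). Of these, TTK is a mitotic kinase, PCNA the sliding clamp of replication and CDH6 one of the renal and ccRCC markers counted above. Near to RRM2B were CRADD (0.0628), PPP2R5C (0.0632), TATDN3 (0.0652) and CCDC25 (0.0666). With 2 libraries per group this distance mostly follows the size of the BCAA effect. Genes that change little therefore lie close together, and a small distance is no sign of a shared control. Among the 9 themselves, RRM1 and TYMS were each other's nearest at 0.290, as were DCK and DCTPP1 at 0.322 and DUT and DTYMK at 0.330, while RRM2 and TK1 were nearest to each other at a wider 0.862.

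Another 28 genes of deoxynucleotide metabolism were taken as a list, and 27 were tested in each line. In 769-P 16 rose, 2 fell and 9 were not called, where 20.3% of all genes tested rose and 18.2% fell. In CAKI-1 10 rose, 2 fell and 15 were not called, where 10.8% of all genes rose and 9.05% fell. The genes that fell were NT5M in both lines, TYMP in 769-P (-1.46 on the log2 scale) and TK2 in CAKI-1. The median log2 fold change was 0.37 in 769-P and 0.11 in CAKI-1, beside -0.02 and -0.01 over all genes tested. The effect differed between the lines for 8 of the 26 genes tested in both, where 21.1% of all genes differed. Of these genes 10 rose in both lines, among them SHMT1, NUDT1, PNP, NME1, SAMHD1, SLC29A1 and NME4.

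SHMT1, which loads folate with a carbon from serine, rose by 1.53 in 769-P (SE 0.07, limma adjusted p = 6.87e-09) and by 0.76 in CAKI-1 (SE 0.09, limma adjusted p = 0.000142), a difference of 0.77 between the lines (limma adjusted p = 0.000265).

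Among the enzymes that clean or break down deoxynucleotides, NUDT1, which removes oxidized purine nucleotides, rose by 1.09 (SE 0.10) in 769-P and by 0.79 (SE 0.11) in CAKI-1. SAMHD1, the triphosphohydrolase that lowers deoxynucleotide pools outside S phase, was at 2373 and 2308 with BCAA and 988.7 and 908.6 without in 769-P, and at 1492 and 1491 with and 1129 and 1044 without in CAKI-1. It rose in both lines, by 1.303 (SE 0.07, limma adjusted p = 2.56e-08) and 0.46 (SE 0.08, limma adjusted p = 0.00152). The difference between the lines was 0.84 (SE 0.10, limma adjusted p = 5.54e-05). NT5M, the mitochondrial nucleotidase, was the one gene of the list that fell in both, by 0.68 in 769-P (SE 0.20) and by 1.25 in CAKI-1 (SE 0.33), from levels of 137.0 and 149.1 and of 58.9 and 63.1 without BCAA.

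The salvage kinases of mitochondria rose less than TK1 in 769-P and did not rise in CAKI-1. TK2, the mitochondrial thymidine kinase, was at 2683 and 2830 with BCAA and 1929 and 1907 without in 769-P. In CAKI-1 it was at 559.4 and 602.4 with and 779.3 and 790.1 without. The groups were separated in both lines and in opposite directions, with log2 fold changes of 0.52 (SE 0.06, limma adjusted p = 1.45e-05) and -0.43 (SE 0.09, limma adjusted p = 0.00620), a difference of 0.96 (SE 0.10, limma adjusted p = 1.63e-05). DGUOK, the mitochondrial deoxyguanosine kinase, rose by 0.28 in 769-P (SE 0.06, limma adjusted p = 0.00417). In CAKI-1 it was at -0.03 (SE 0.07, limma adjusted p = 0.829), not called, and at 0.01 with median centering.

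**Figure D5:**
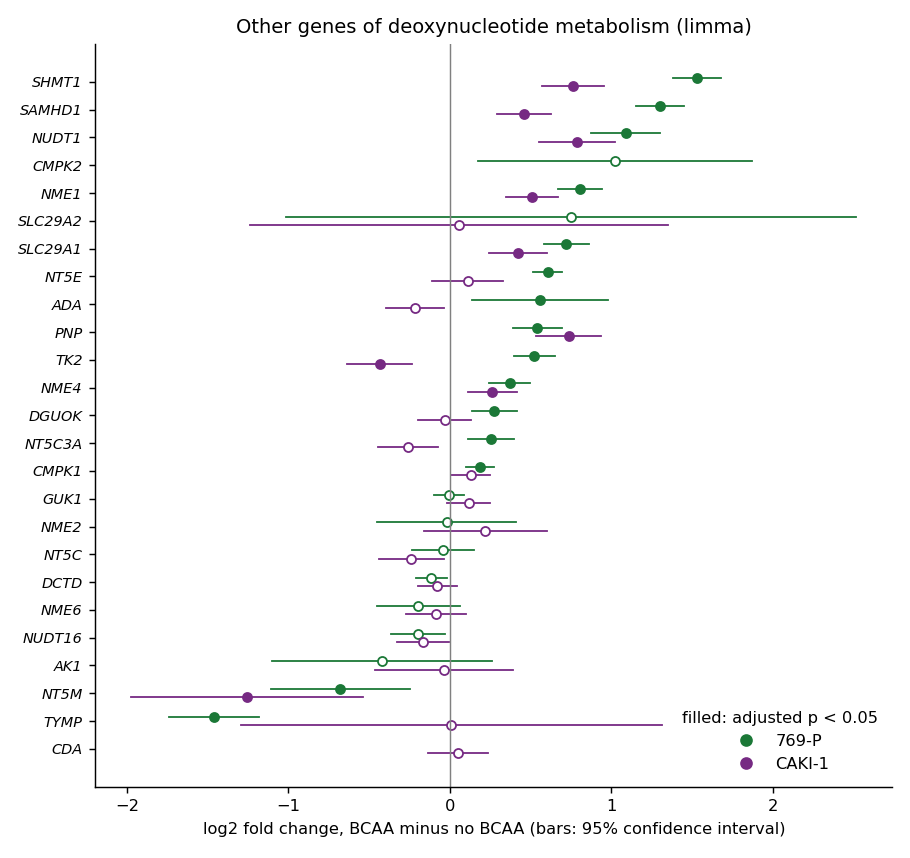
Log2 fold change (BCAA minus no BCAA) with its 95% confidence interval for other genes of deoxynucleotide metabolism in 769-P (green) and CAKI-1 (purple), ordered by 769-P, with filled points for an adjusted p under 0.05 in limma. SHMT1 is right of 0 in both lines, at 1.53 and 0.76, and TK2 lies on opposite sides of 0.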

How the data were processed

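RNA-seq of 769-P and CAKI-1 cells was analysed from 8 libraries grouped by the cell line and treatment in their labels. The authors deposited 1 table per line, whose values are a signal of gene read counts divided by size factors. The submitters' processing notes name Trim Galore, TopHat2 2.1.0, SAMtools 1.3.1, HTSeq 0.6.0, DESeq, DESeq2 and build hg38, with no order or settings. Every value (100%) was a whole multiple of 1 read within 0.001, which gave the reads back. The size factors equal the median-of-ratios factors within each table, so lines were compared by their within-table effects. At 30979773 to 64256834 reads per library, precision was limited by the 2 libraries per group.

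Symbols and exons were taken from GENCODE 29 on GRCh38 (symbols for 25032 of 25431 and 23881 of 24190 identifiers). limma 3.58.1 in R 4.3.3 (lmFit, eBayes with trend) was fitted within each line to log2(value + 1), keeping genes whose mean was 1 or more and using no replicate block, and p-values were adjusted by Benjamini-Hochberg over all tested genes. Fold changes on this scale understate those of low genes. Alternatives changed the pseudocount, filter, scaling, threshold, block, spread and libraries, and edgeR 4.0.16 and DESeq2 1.42.0 were run on the recovered reads. Fits of left-out libraries with the spread from 7 libraries were added after seeing the data. The main limma fits, within each line and between lines, and edgeR within each line were tested on simulated data first. The other alternatives were not.

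Some genes that the naming rules pick are not reported here, although the counts include them. The 9 genes and the lists were chosen with earlier results of these data known. All 9 were named. Of the other 28 genes, SAMHD1, TK2, DGUOK and up to 4 with the largest change called the same way in both lines were named. TYMP, further genes called in both lines and the pseudogenes were named after their values were seen.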

Additional observations from a re-analysis of the deposited data

Results flagged for a closer look

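For 4 of the 9 genes the effect of BCAA differed between the lines by the interaction test in limma (769-P minus CAKI-1, log2 scale). These were RRM1 at 0.40, RRM2 at 0.37, DUT at 0.41 and TK1 at -0.41. RRM1 rose by 1.37 in 769-P and 0.97 in CAKI-1, RRM2 by 2.46 and 2.08, DUT by 0.96 and 0.55, and TK1 by 1.61 and 2.02. Over the fits that left out 1 library the differences stayed between 0.30 and 0.51 for RRM1, 0.28 and 0.47 for RRM2, 0.34 and 0.49 for DUT, and -0.47 and -0.35 for TK1. Over all genes tested, 21.1% differed.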

How the results depend on the processing

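The direction of each of the 9 genes was the same in both lines in all 171 values per line from 19 alternatives (scaling, pseudocount, filter, spread, tool and left-out libraries). Many of these values could not have differed in direction. The filter, the block and the spread leave a log2 fold change as it was. Leaving out 1 library cannot reverse groups that do not overlap. Only scaling, pseudocount, thinning and tool could have changed a direction. The alternatives that moved a count were these. Asking for a 2-fold change as well left 4 of the 9 higher in 769-P, 3 in CAKI-1 and 0 different between lines. An adjusted p under 0.01 left 3 of the 9 different between lines, without RRM1. The shares of all genes that pass these stricter thresholds were not counted. Quantile normalization called 1 lower in 769-P, and the spread from all 8 libraries called 1 lower in CAKI-1, RRM2B in both. In 769-P every fit without 1 library also called fewer genes overall than the fit with all of them. Leaving out 1 library gave 6 to 8 higher in 769-P, 0 to 8 higher and 0 to 1 lower in CAKI-1, and 3 to 4 different between lines, where the zeros came from fits of 3 CAKI-1 libraries.

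For the other 28 genes, leaving out 1 library gave 9 to 15 higher and 1 to 2 lower in 769-P, 0 to 12 higher and 0 to 3 lower in CAKI-1, and 4 to 9 different. A 2-fold change left 4 higher and 1 lower in 769-P, 1 and 1 in CAKI-1 and 0 different. An adjusted p under 0.01 left 1 lower in each line and 4 different. Here too the shares of all genes at these thresholds were not counted. In 769-P a minimum mean of 10 gave 4 lower, and thinned reads and the spread from all 8 libraries gave 1. In CAKI-1 quantile normalization gave 1 lower. The log2 fold change of DGUOK in CAKI-1 turned from -0.03 to 0.0110 with median centering, and leaving out 1 library gave -0.0742 to 0.0138, above 0 without replicate 2 of CAKI-1 without BCAA. None of these values of DGUOK was called. The cause of these changes was not tested, other than the fewer libraries or the stricter threshold.

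Same-numbered libraries did not deviate together (correlation -0.09 in 769-P over 11855 genes and 0.06 in CAKI-1 over 11720). A fit with a replicate block called 8925 genes in 769-P, against 8605 without, and 3936 in CAKI-1, against 4243, with 8 of the 9 genes in each line and 4 of the differences. At 30979773 reads or more per library, the members had at least 660 reads in each.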
